A study of Mus musculus with 14 samples.

Results

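The libraries described here compare demyelinated lesion with distal tissue of the ventral spinal cord in mice whose microglia had been ablated. They are the 4 lesion and 4 distal libraries labelled as microglia ablated, 8 of the 14 libraries of the study. All mice carried Cx3cr1-CreER, a tamoxifen-inducible Cre recombinase driven by the fractalkine receptor locus. The ablated mice were Cx3cr1-CreER :Rosa26-iDTR+/-, so that Cre activity switches on a diphtheria toxin receptor, and the non-ablated mice were Rosa26-iDTR-/-. Every mouse received tamoxifen for 3 days, lysophosphatidylcholine (LPC) in the ventral cord 4 to 6 weeks later, and diphtheria toxin daily until the tissue was taken at 5 days after LPC. Lesion or distal tissue was microdissected, and the study describes its groups as pools of 3 to 5 mice of both sexes. Non-ablated mice gave 3 lesion and 3 distal libraries, which are used below only to set the ablated response beside the non-ablated one. The age labels rise by 1 month from each library to the next, from 8 to 15 months in the ablated libraries and from 2 to 7 months in the non-ablated ones. Age as labelled and ablation therefore cannot be told apart. The labels do not say which lesion and distal pools came from the same mice, and p-values measure the spread between pools.

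LPC is a detergent-like phospholipid that strips myelin from axons while leaving most axons in place. Phagocytes, both resident microglia and macrophages derived from blood monocytes, then take up the cholesterol-rich myelin debris, and oligodendrocyte progenitors migrate in, divide and later form new myelin. Cx3cr1 is carried by microglia, by macrophages at the borders of the central nervous system and by a share of blood monocytes, so Cre is not restricted to microglia, and circulating monocytes are renewed from marrow after tamoxifen is gone. In bulk tissue, fewer cells of a type and less RNA per cell cannot be told apart, for any gene below.

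Recovered reads ran from 23601763 to 30844575 per library, and 15949 to 17945 genes had at least 1 read. Values below are the authors' normalized counts per gene. A value list gives the distal libraries in the order 7, 9, 11 and 13 and the lesion libraries in the order 8, 10, 12 and 14, numbered as in their titles. Changes are log2 fold changes of the normalized count plus 1, lesion minus distal, with their standard error (SE) and an adjusted p over 15637 genes. Such changes understate those of genes with low counts. Lesion and distal libraries lay at opposite ends of the first principal component, which held 45.9% of the variance. Distal library 9 stood apart on the second component, at 151.69 against −55.32 to 42.95 for the other 13 libraries. Values without it are given beside some of the results that it moved, and not beside all of them. Markers of cord tissue were present, with 18 of 18 listed myelin genes, 15 of 16 astrocyte genes and 16 of 16 neuron genes detected well enough to be tested, a count that cannot tell lesion from distal tissue.

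In the ablated mice 2520 genes were higher in the lesion, 16.1% of those tested, and 2158 were lower, 13.8%. The rises were larger than the falls. Their median was 2.17 on the log2 scale against −1.50 for the falls, and 1372 genes rose by more than 2 against 604 that fell by more than 2. The median over all tested genes was 0.047. All 4 lesion values lay above all 4 distal values at 2549 genes, 16.3%, and below them at 2150, 13.7%.

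Cx3cr1, whose locus drives Cre, was lower in the ablated libraries than in the non-ablated ones. It was at 90.2, 21.7, 81.2 and 128 in the ablated distal libraries and at 864, 1361 and 510 in the non-ablated distal ones. In the lesions it was at 155, 240, 212 and 336 with ablation and at 3892, 3657 and 4717 without. The ablated and non-ablated ranges did not overlap in either tissue, and Cx3cr1 still rose from distal to lesion within the ablated mice, by 1.74 ± 0.47 (adjusted p = 0.0118). Csf1r, the receptor that microglia and macrophages need for survival, was at 966, 241, 883 and 808 in distal tissue and at 2801, 2421, 2739 and 3358 in lesions, with no overlap. The non-ablated libraries stood higher, at 3720, 4241 and 3346 and at 10950, 8990 and 13817. In the ablated mice it rose by 2.14 ± 0.35 (adjusted p = 0.00034), and by 1.67 without distal library 9, whose value was the lowest.

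Markers of homeostatic microglia did not move together. Of 14 tested, 6 rose and 4 fell, and their median change was −0.07, a value that turned positive with the filter at 50, with array weights or with the age covariate, and without distal library 7 (0.30) or 9 (0.15) or lesion library 12 (0.13). Sall1, a transcription factor of the microglial identity programme, was at 965, 700, 518 and 815 in distal tissue and at 142, 204, 277 and 192 in lesions. No lesion library reached the lowest distal one, and Sall1 fell by 1.88 ± 0.34 (adjusted p = 0.000731). Siglech, a lectin of microglia and plasmacytoid dendritic cells, fell by 2.80 ± 0.79 (adjusted p = 0.0147), a call lost when only the ablated libraries are fitted (adjusted p = 0.0596), and Crybb1 fell by 2.24 ± 0.62 (adjusted p = 0.0133). Cst3, cystatin C, fell by 1.02 ± 0.29 (adjusted p = 0.0165), a call lost without lesion library 14 (adjusted p = 0.0611). Crybb1 and Cst3 were named after their values were seen. Tmem119, a surface protein of microglia, ranged from 1169 to 26069 in distal tissue and from 2684 to 11836 in lesions, so the groups overlapped (log2 change 0.20 ± 0.77 (adjusted p = 0.882)). It was at 4215, 24793 and 6665 in the non-ablated distal and at 27462, 24622 and 33572 in the non-ablated lesion libraries. The summed list ran from 156630 to 451094 in ablated distal tissue and from 112499 to 193015 in ablated lesions. The members that rose were Tgfbr1, a TGF-β receptor, by 2.71 ± 0.23 (adjusted p = 1.59e-06), Selplg, the P-selectin ligand, by 2.55 ± 0.31 (adjusted p = 2.52e-05), Fcrls by 2.06 ± 0.35 (adjusted p = 0.000497), and Cx3cr1, Olfml3 and Mertk. The Mertk rise of 2.26 ± 0.73 (adjusted p = 0.0305) was 1.39 without distal library 7 (adjusted p = 0.0618), and its call was lost under 8 of 28 alternatives, among them the fit on ablated libraries alone (0.0802), edgeR (0.117) and DESeq2 (0.0716). P2ry12, P2ry13 and Gpr34 are listed at 0 in all 14 libraries, and genes that every cell uses are also listed at 0, so those entries say nothing of the cells.

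Genes shared by all macrophages rose almost without exception. Of 20 tested, 19 rose and none fell, with a median of 4.06. Their summed level ran from 14392 to 67777 in the distal libraries and from 706558 to 1096574 in the lesions. Ctss, a lysosomal cysteine protease, was at 895, 5657, 2350 and 3893 in distal tissue and at 107108, 86312, 97242 and 113539 in lesions. Even the lowest lesion library was more than 10 times the highest distal one, and the rise was 5.27 ± 0.42 (adjusted p = 7.6e-07). Cd53, a leukocyte tetraspanin, was at 41.5, 102, 154 and 207 and at 5675, 4874, 5493 and 8548 in the same order, a rise of 5.78 ± 0.38 (adjusted p = 2.03e-07). Adgre1, which encodes the F4/80 antigen and was named after its values were seen, went from 23.7, 144, 64.8 and 133 to 1964, 1324, 1331 and 2847. Csf2rb, the shared β chain of the GM-CSF, IL-3 and IL-5 receptors, rose by 5.91 ± 0.45 (adjusted p = 5.85e-07), and Laptm5 by 3.86 ± 0.30 (adjusted p = 6.9e-07). Csf2rb has a near-identical neighbour, Csf2rb2, and reads could be split between the pair. The member without a call was Spi1, which encodes the myeloid factor PU.1, at 2.24 ± 0.86 (adjusted p = 0.0634). Its 4 lesion values lay above its 4 distal values, and it passed without distal library 9 (log2 2.84, adjusted p = 0.0207).

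**Figure D1:**
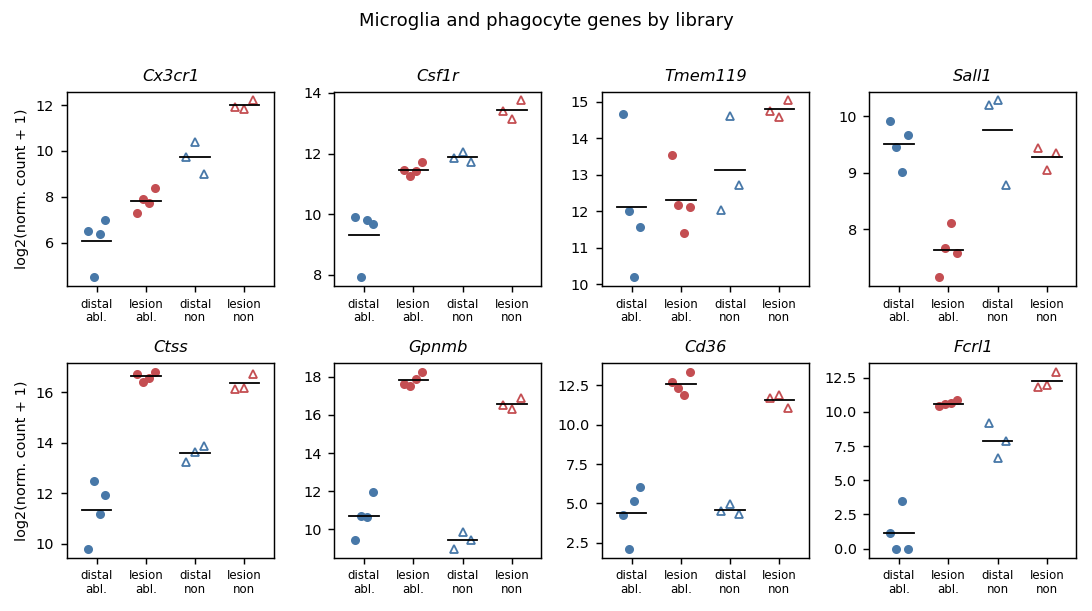
Log2(normalized count + 1) of 8 phagocyte genes in every library, with circles for ablated and open triangles for non-ablated libraries, distal in blue and lesion in red, and black lines at the mean of log2(normalized count + 1). Ctss, Gpnmb, Cd36 and Fcrl1 lie higher in all 4 ablated lesion libraries than in any ablated distal library, Sall1 lies lower, and Tmem119 overlaps.

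PU.1 is a main factor of myeloid genes, and the letters of its core, GAGGAAGT, were searched on both strands in windows from 250 bases before to 50 after each gene's start (RefSeq, GRCm38.p6). Of 14 pan-macrophage genes with a window, Cd53 and Ctss held it, 14.3% against 3.69% of 27025 genes. A match is a description of letters and not a bound site. The Ctss window, chr3:95526536-95526835 on the plus strand, is printed with the match in capitals.
Ctss: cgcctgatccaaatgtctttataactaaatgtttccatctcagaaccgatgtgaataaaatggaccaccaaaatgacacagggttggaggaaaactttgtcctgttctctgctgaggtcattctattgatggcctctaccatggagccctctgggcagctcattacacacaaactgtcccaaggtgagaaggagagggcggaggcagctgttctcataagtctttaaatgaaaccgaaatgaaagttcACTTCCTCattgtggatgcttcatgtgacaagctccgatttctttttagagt

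Genes of recruited monocytes and of border macrophages rose in part. Of 15 monocyte genes, 9 rose and none fell (median 2.63). The changes of 3 members were negative without a call, the lowest that of Ly6c2 (−0.78). With 1 ablated library left out 7 to 8 rose, and without distal library 9 the median was 1.96. F10, coagulation factor X, was at 0, 0, 4.56 and 7.15 in distal tissue and at 1453, 374, 301 and 960 in lesions, 2 of the distal libraries being at 0. Thbs1, thrombospondin 1, rose by 7.27 ± 0.90 (adjusted p = 3.28e-05), Itga4, the α4 integrin used for entry into tissue, by 3.97 ± 0.44 (adjusted p = 1.24e-05), and Fn1, fibronectin, by 2.02 ± 0.35 (adjusted p = 0.000559). Ccr2, the chemokine receptor that brings monocytes out of marrow, was at 218, 40.1, 113 and 77.8 in distal tissue and at 864, 430, 435 and 728 in lesions. Its groups did not overlap, but it did not pass (log2 2.63 ± 1.07 (adjusted p = 0.0784)). It passed when only the ablated libraries were fitted (adjusted p = 0.00426) and without non-ablated distal library 1 (0.0083) or 5 (0.0211). Cd44 (log2 −0.53 ± 0.37 (adjusted p = 0.323)) overlapped, with distal library 9 at 96609 against 32956 to 35020 in the other distal libraries, and gave −0.15 without it.

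Of 11 border macrophage genes tested, 7 rose (median 2.99). Folr2, a folate receptor, went from 103, 61.8, 63.9 and 82.2 to 771, 517, 492 and 714, a rise of 2.99 ± 0.44 (adjusted p = 0.00015). Ms4a7 rose by 4.98 ± 0.68 (adjusted p = 7.7e-05), Stab1, a scavenger receptor, by 2.82 ± 0.42 (adjusted p = 0.000166), and F13a1, a coagulation factor subunit, by 3.77 ± 0.66 (adjusted p = 0.000566). The hyaluronan receptor Lyve1 lay the other way, at 445, 244, 322 and 232 in distal tissue and 86.4, 43.9, 93 and 50.2 in lesions, without passing (log2 −2.19 ± 0.95 (adjusted p = 0.0999)). Fitted on the ablated libraries alone it passed (adjusted p = 0.00342). The mannose receptor Mrc1 gave 1.33 ± 0.52 (adjusted p = 0.0705), and it passed in the fit on the ablated libraries alone (adjusted p = 0.0481), with DESeq2 (0.0384), with the replicate block (0.0183) and without non-ablated distal library 1 (0.0305).

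Genes of lipid-laden, debris-filled phagocytes gave the largest list median, 4.20 among 25 genes, of which 22 rose and none fell. Gpnmb, a glycoprotein of lysosome-rich macrophages, was at 697, 1669, 1602 and 4044 in distal tissue and at 203081, 184256, 239217 and 309668 in lesions. Every lesion library was more than 10 times the highest distal one, and the rise was 7.11 ± 0.40 (adjusted p = 7.22e-08). Atp6v0d2, a subunit of the vacuolar proton pump, went from 3.56, 1.67, 1.83 and 15.2 to 1863, 2321, 2310 and 3759, a rise of 8.99 ± 0.55 (adjusted p = 1.3e-07). Ctsb, cathepsin B, rose by 3.59 ± 0.22 (adjusted p = 1.15e-07), Igf1 by 5.01 ± 0.35 (adjusted p = 3.49e-07), and Spp1, osteopontin, by 7.03 ± 0.64 (adjusted p = 2.18e-06). Trem2, a lipid-sensing receptor, and Lpl, lipoprotein lipase, both named after their values were seen, rose by 5.39 ± 0.67 (adjusted p = 3.38e-05) and 4.20 ± 0.31 (adjusted p = 5.57e-07). The other 3 members did not pass. Ctsk gave 0.62 ± 0.35 (adjusted p = 0.208), and passed without distal library 9 (log2 0.98, adjusted p = 0.0164), Cst7 gave 1.14 ± 0.52 (adjusted p = 0.118), and Ch25h, cholesterol 25-hydroxylase, gave −0.42 ± 0.78 (adjusted p = 0.734). Ch25h was at 1841 in distal library 9 against 134 to 227 in the other distal libraries, and without it the change was 0.44. The lists overlap in membership with macrophage genes in general, and the part that cell number has in these rises was not tested.

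Receptors for antibody and for microbial or nucleic acid ligands followed: 19 of 21 rose. Fcgr4, an activating IgG receptor, was at 3.56, 8.35, 29.2 and 10.7 and then 1431, 883, 1035 and 1536, a rise of 6.75 ± 0.80 (adjusted p = 2.3e-05). Tlr13, a receptor for bacterial RNA in mice, rose by 4.68 ± 0.39 (adjusted p = 1.02e-06), Fcgr2b, the inhibitory IgG receptor, by 2.91 ± 0.31 (adjusted p = 8.76e-06), and Fcgr1 by 3.10 ± 0.36 (adjusted p = 1.65e-05). Tlr3, which binds double-stranded RNA and was named after its values were seen, fell by 1.33 ± 0.39 (adjusted p = 0.0189), a call lost when only the ablated libraries were fitted (adjusted p = 0.0655) and without lesion library 8 (0.0587).

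Genes of the lysosome rose in 18 of 20 cases, with a median of 2.67, and all 18 were free of overlap. Hexa, a ganglioside-degrading subunit, was at 1002, 2040, 1690 and 1761 in distal tissue and at 22693, 17388, 18397 and 24580 in lesions. The groups were far apart and Hexa rose by 3.71 ± 0.22 (adjusted p = 1.12e-07). Psap, prosaposin, rose by 2.96 ± 0.20 (adjusted p = 2.9e-07) and Ctsh, cathepsin H, by 3.73 ± 0.27 (adjusted p = 4.48e-07). The membrane proteins Lamp1 and Npc1, the latter a cholesterol transporter, did not pass, at 0.47 ± 0.21 (adjusted p = 0.107) and 0.47 ± 0.23 (adjusted p = 0.149). Lamp1 passed without distal library 9 (log2 0.63, adjusted p = 0.0216).

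Many lysosome genes carry the CLEAR element, bound by the factor TFEB and its relatives. Its core TCACGTGA, which reads the same on both strands, was found in 5 of the 15 lysosome genes with a window, 33.3% against 1.12% of 27025 genes: Atp6v1a, Cln3, Ctsa, Gla and Mcoln1. Windows of 3 of them are shown with the core in capitals, as examples of lysosome genes that rose, chosen for the motif after their values were seen. Ctsa, cathepsin A, rose by 2.45 ± 0.31 (adjusted p = 3.76e-05), Gla, α-galactosidase, by 4.06 ± 0.57 (adjusted p = 8.76e-05), and Atp6v1a, a proton pump subunit, by 1.41 ± 0.16 (adjusted p = 1.78e-05). Atp6v1a is at chr16:44139210-44139509 on the minus strand, Ctsa at chr2:164833523-164833822 on the plus strand and Gla at chrX:134600956-134601255 on the minus strand.
Atp6v1a: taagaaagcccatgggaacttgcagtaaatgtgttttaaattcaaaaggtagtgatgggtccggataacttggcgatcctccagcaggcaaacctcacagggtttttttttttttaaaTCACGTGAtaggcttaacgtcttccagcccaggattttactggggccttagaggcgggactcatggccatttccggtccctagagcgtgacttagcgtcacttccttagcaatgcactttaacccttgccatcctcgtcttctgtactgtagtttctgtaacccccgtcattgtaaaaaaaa
Ctsa: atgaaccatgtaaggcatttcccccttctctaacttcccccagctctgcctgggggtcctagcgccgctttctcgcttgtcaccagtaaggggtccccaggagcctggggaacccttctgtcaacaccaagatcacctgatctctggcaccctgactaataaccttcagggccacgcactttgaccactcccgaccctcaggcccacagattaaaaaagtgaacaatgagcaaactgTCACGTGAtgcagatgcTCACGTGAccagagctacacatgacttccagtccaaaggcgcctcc
Gla: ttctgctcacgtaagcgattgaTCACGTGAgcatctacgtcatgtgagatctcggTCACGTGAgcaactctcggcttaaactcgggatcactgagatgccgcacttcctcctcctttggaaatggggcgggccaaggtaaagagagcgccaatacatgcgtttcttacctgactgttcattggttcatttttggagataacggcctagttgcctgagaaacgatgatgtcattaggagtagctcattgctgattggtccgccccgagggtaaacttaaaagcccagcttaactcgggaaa

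Complement genes rose in 7 of 12 cases and 1 fell. C1qb, a chain of the complement starter C1q, was at 1207, 2067, 1343 and 1313 in distal tissue and at 22107, 14341, 18265 and 18056 in lesions, without overlap. It rose by 3.63 ± 0.23 (adjusted p = 1.55e-07), C1qa by 2.98 ± 0.27 (adjusted p = 2.18e-06), C1qc by 3.69 ± 0.46 (adjusted p = 3.72e-05), and C3ar1, the receptor for the C3a fragment, by 4.56 ± 0.29 (adjusted p = 1.55e-07). C3 itself, the central component, went the other way, from 27041, 21149, 10968 and 16555 to 6731, 4358, 3509 and 3173, and fell by 2.08 ± 0.30 (adjusted p = 0.000103). It was named after its values were seen.

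Of 18 chemokines, 6 rose and 1 fell. Ccl3, which attracts monocytes and macrophages, was at 4.75, 20, 2.74 and 12.5 and then 282, 191, 120 and 326, a rise of 4.61 ± 0.65 (adjusted p = 9.8e-05). Ccl8 rose by 4.88 ± 1.00 (adjusted p = 0.00198), Cxcl16 by 3.45 ± 0.71 (adjusted p = 0.00202) and Ccl9 by 2.08 ± 0.46 (adjusted p = 0.00335). The monocyte attractant Ccl2 varied widely in distal tissue, from 66.5 to 1772, and did not pass (log2 2.29 ± 1.02 (adjusted p = 0.109)). Without distal library 9, the 1772, it passed (log2 3.03, adjusted p = 0.0346). Cx3cl1, the neuronal ligand of Cx3cr1, fell by 0.91 ± 0.20 (adjusted p = 0.00361) and was named after its values were seen.

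Of 21 cytokines and receptors, 8 rose and 3 fell. Tnfrsf1b, TNF receptor 2, was at 57, 20, 150 and 89.4 and at 2289, 3122, 3624 and 3728. Each lesion library was at least 10 times each distal one. Osm, oncostatin M, rose by 5.23 ± 0.61 (adjusted p = 1.87e-05), and Tgfbr2, a TGF-β receptor subunit, by 2.66 ± 0.26 (adjusted p = 4.27e-06). Il1a, interleukin 1α, had 1 read in the 4 distal libraries together and stood at 11.3, 9.58, 8.31 and 22 in lesions (adjusted p = 0.000537).

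Neutrophil genes were present in the lesion at low to moderate counts: 6 of 8 tested rose. Csf3r, the G-CSF receptor, went from 49.8, 104, 126 and 58.1 to 1110, 1023, 1717 and 1134, a rise of 3.94 ± 0.31 (adjusted p = 7.8e-07). Mmp8, a collagenase, rose by 6.84 ± 0.85 (adjusted p = 3.32e-05), and Cxcr2 by 3.71 ± 0.84 (adjusted p = 0.00385). S100a8 was at 1749, 189, 189 and 192 in lesions, library 8 standing far above the rest (log2 5.49 ± 1.32 (adjusted p = 0.00567)). Ltf, a granule protein, gave 1.33 ± 1.03 (adjusted p = 0.367). Ly6g, Ngp, Camp and Retnlg were too low to be tested.

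Lymphocyte and dendritic cell genes were near the limit of detection. None of 10 T and NK cell genes passed by limma or edgeR, 1 passed by DESeq2 and 1 had an unadjusted p under 0.05, and their summed level ran from 57 to 234 in distal tissue and from 93.9 to 176 in lesions. Cd4 reached 29.8 in lesion library 14 and 0 in lesion library 8 (log2 2.35 ± 1.03 (adjusted p = 0.103)). Of 10 dendritic cell genes 3 rose and 1, Siglech, fell, and 5 rose without distal library 7 or 9. Ccr7, the receptor that guides dendritic cells to lymph nodes, was at 0 in all 4 distal libraries and at 33.8, 39.9, 33.2 and 32.1 in lesions (adjusted p = 2.33e-05). Xcr1, a receptor of cross-presenting dendritic cells, rose by 3.03 ± 0.67 (adjusted p = 0.00322), and Clec9a passed with 2 reads in all distal libraries (adjusted p = 0.00652), a call lost with quantile normalization (0.0943). Of the B cell genes Cd79b rose by 3.96 ± 0.88 (adjusted p = 0.00335) and Pax5 fell by 2.20 ± 0.76 (adjusted p = 0.0407), with overlap in both. Cd79b lost its call with edgeR (adjusted p = 0.0728), and Pax5 lost its under 11 of 28 alternatives. Cd74, the invariant chain of MHC class II, rose by 4.00 ± 0.81 (adjusted p = 0.00184), while 4 class II genes are listed at 0 in all libraries.

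The type I interferon genes gave no shared direction. Of 18 tested, 3 rose and 1 fell, and the median was 0.38. Of all tested genes 16.1% were higher and 13.8% lower, so the count of rises was near that share. Oas1a rose by 3.50 ± 1.08 (adjusted p = 0.0232), Bst2 by 3.02 ± 0.98 (adjusted p = 0.0311) and Trim30a by 1.12 ± 0.34 (adjusted p = 0.021), and Mx2, whose close relative Mx1 could take part of its reads, fell by 1.66 ± 0.50 (adjusted p = 0.0217). None of these calls held under every alternative. Oas1a was at 5.01 in distal library 9 against 148 to 190 in the other distal libraries, and its change was 2.30 without that library. It lost its call without lesion library 14 (adjusted p = 0.066). The count of rises was 0 without lesion library 14, 1 without distal library 13 and 5 without non-ablated distal library 1, and the count of falls ran from 0 without library 7, 8 or 11 to 3 without non-ablated distal library 1 or 5. Ifit3 gave −1.05 ± 0.87 (adjusted p = 0.405).

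Genes for the uptake of dying cells rose in 11 of 19 cases and fell in 3. Cd36, a scavenger receptor for oxidized lipid, was at 17.8, 3.34, 34.7 and 63.5 in distal tissue and at 6630, 5176, 3774 and 10474 in lesions. The lowest lesion value was more than 10 times the highest distal one, and the rise was 8.19 ± 0.63 (adjusted p = 6.38e-07). Mfge8, a bridge between phosphatidylserine and integrins, was at 2350, 3919, 2244 and 3333 and then at 15368, 15121, 15394 and 19408, a rise of 2.49 ± 0.21 (adjusted p = 1.02e-06). Gas6, the bridge to the receptors Axl and Mertk, went from 5435, 5994, 5308 and 4625 to 6965, 6952, 6378 and 9180, a small rise of 0.46 ± 0.15 (adjusted p = 0.0353). That call was lost under 9 of 28 alternatives, among them the fit on ablated libraries alone (adjusted p = 0.111).

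Cholesterol synthesis was lower in the lesion at nearly every step. Of 22 genes of the pathway and its regulators, 20 fell, none rose, and the median was −1.96. Hmgcs1, which makes the precursor HMG-CoA, was at 22654, 18122, 16587 and 19151 in distal tissue and at 3997, 4565, 5191 and 4900 in lesions. The libraries within each group were close together, and Hmgcs1 fell by 2.03 ± 0.19 (adjusted p = 3.33e-06). Msmo1 fell by 2.30 ± 0.18 (adjusted p = 7.96e-07) and Cyp51 by 2.35 ± 0.22 (adjusted p = 2.93e-06), both enzymes of later steps. Lss, lanosterol synthase, had few reads (log2 −1.45 ± 0.65 (adjusted p = 0.11)) and passed without distal library 9 (log2 −1.90, adjusted p = 0.0339), and Ebp gave −0.27 ± 0.29 (adjusted p = 0.526). Mature oligodendrocytes and astrocytes are main sites of this pathway in the cord, and the markers of both fell as described below. Their part in the fall was not tested.

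The sterol regulatory element TCACNCCAC, which binds SREBP factors, was searched in the same windows on both strands. Only Hmgcs1 of 16 cholesterol genes with a window held this exact spelling, 6.25% against 1.44% of 27025 genes. Its window, chr13:119690101-119690400 on the plus strand, is shown with the element in capitals.
Hmgcs1: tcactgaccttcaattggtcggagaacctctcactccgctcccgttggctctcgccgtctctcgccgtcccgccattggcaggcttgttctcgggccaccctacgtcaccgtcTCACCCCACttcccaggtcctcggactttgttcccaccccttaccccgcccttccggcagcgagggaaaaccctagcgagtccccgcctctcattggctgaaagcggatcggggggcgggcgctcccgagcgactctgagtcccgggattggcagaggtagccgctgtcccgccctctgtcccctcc

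Genes that export or store sterol went the other way. Abca1, the pump that loads cholesterol onto apolipoproteins, was at 1952, 1838, 1474 and 1618 in distal tissue and at 16403, 13663, 22087 and 22801 in lesions, a rise of 3.42 ± 0.22 (adjusted p = 1.59e-07). Soat1, which esterifies cholesterol, rose by 3.12 ± 0.23 (adjusted p = 4.48e-07), and Plin2, a coat protein of lipid droplets, by 3.90 ± 0.35 (adjusted p = 2.24e-06). Abcg1, another sterol pump, named after its values were seen, rose by 1.83 ± 0.29 (adjusted p = 0.000266). In this list of 18 genes 10 rose and 4 fell. Of 17 genes of fatty acid metabolism 3 rose and 7 fell. The desaturases Scd1 and Scd2 fell by 2.31 ± 0.22 (adjusted p = 2.89e-06) and 1.82 ± 0.22 (adjusted p = 2.89e-05), and the elongase Elovl6 by 1.48 ± 0.23 (adjusted p = 0.000261), while the lipid-sensing receptor Pparg rose by 3.58 ± 0.44 (adjusted p = 3.29e-05).

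Myelin genes fell without exception. All 18 tested fell, with no overlap at any of them and a median of −2.43, and all 18 still passed when any 1 of the 8 libraries was left out. Mobp, a compact myelin protein, was at 145060, 141894, 114032 and 154821 in distal tissue and at 16835, 14616, 16171 and 12017 in lesions. It fell by 3.22 ± 0.19 (adjusted p = 1.15e-07). Mbp, myelin basic protein, went from 1300126, 1482414, 1126948 and 1550911 to 209816, 180582, 201558 and 163356 and fell by 2.85 ± 0.23 (adjusted p = 7.6e-07). Mog fell by 2.94 ± 0.23 (adjusted p = 7.83e-07) and Ermn by 2.79 ± 0.21 (adjusted p = 6.38e-07).

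Genes of newly formed oligodendrocytes mostly rose, 6 of 9, and 1 fell. Gpr17, also of this list, is listed at 0 in all libraries and was not tested. Enpp6, an enzyme of cells that are just starting to myelinate, was at 1964, 2361, 1557 and 2057 in distal tissue and at 493, 669, 1205 and 811 in lesions, and fell by 1.38 ± 0.26 (adjusted p = 0.00104). Tcf7l2, a transcription factor of differentiating oligodendrocytes, rose by 1.25 ± 0.25 (adjusted p = 0.00152) and Tmem163 by 1.00 ± 0.21 (adjusted p = 0.00213). Bmp4, a growth factor that young oligodendrocytes also make and that other cell types share, went from 4.75, 60.1, 8.21 and 21.4 to 113, 152, 266 and 180, a rise of 3.37 ± 0.64 (adjusted p = 0.00102). Bcas1 gave −0.47 ± 0.24 (adjusted p = 0.167) and passed without distal library 9 (log2 −0.64, adjusted p = 0.0477).

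Progenitor genes were split: 7 of 17 rose and 3 fell. Pdgfra, the receptor that defines these cells, was at 3462, 3209, 2066 and 2117 in distal tissue and at 3321, 2555, 4204 and 3722 in lesions. The groups overlapped and the change was 0.36 ± 0.22 (adjusted p = 0.231). Olig2 gave 0.01 ± 0.18 (adjusted p = 0.972). Sox4, a factor of immature cells of many lineages, rose by 4.58 ± 0.96 (adjusted p = 0.00227), Lhfpl3 by 0.95 ± 0.18 (adjusted p = 0.00129), and Vcan, the proteoglycan versican, by 1.73 ± 0.28 (adjusted p = 0.000331), while Gpr37l1, shared with astrocytes, fell by 1.56 ± 0.21 (adjusted p = 6.14e-05). Distal sum levels of the progenitor list ran from 55813 to 91395 and lesion sums from 48236 to 64630.

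Of 22 growth factors and inhibitors that act on these cells, 8 rose and 3 fell. Igf1 was at 141, 93.6, 217 and 139 in distal tissue and at 3827, 3934, 5152 and 5785 in lesions. Every lesion value was more than 10 times the highest distal one. Tgfb1 rose by 2.93 ± 0.60 (adjusted p = 0.00187), and Fgf1 fell by 1.96 ± 0.23 (adjusted p = 1.82e-05). Pdgfb gave 0.94 ± 0.51 (adjusted p = 0.187), and 0.23 without distal library 9. Hbegf, the mouse form of a growth factor whose human counterpart binds diphtheria toxin, gave −0.04 ± 0.24 (adjusted p = 0.921).

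**Figure D2:**
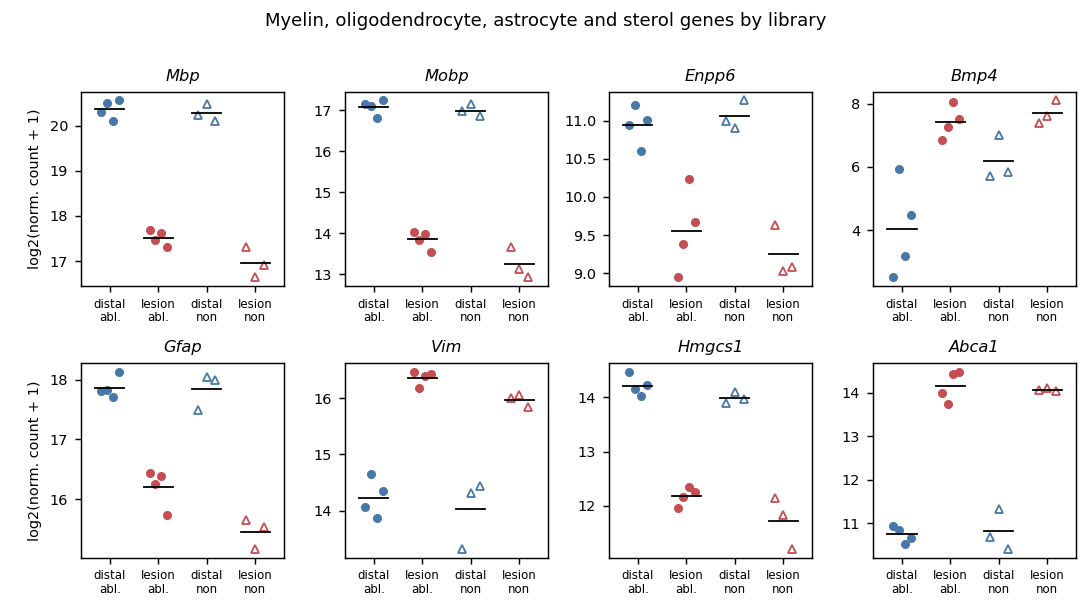
Log2(normalized count + 1) of 8 genes of myelin, oligodendrocyte, astrocyte and sterol biology in every library, with the same symbols for ablated and non-ablated, distal and lesion, and black lines at the mean of log2(normalized count + 1). Mbp, Mobp, Enpp6, Gfap and Hmgcs1 are lower in all 4 ablated lesion libraries than in any ablated distal library, and Bmp4, Vim and Abca1 are higher.

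Astrocyte genes fell as uniformly as myelin genes. All 15 tested fell, none overlapped, the median was −2.35, and 15 passed in each fit that left out 1 of the 8 libraries. Ntsr2, a neurotensin receptor of astrocytes, was at 7501, 14816, 6487 and 8044 in distal tissue and at 893, 914, 833 and 384 in lesions. It fell by 3.61 ± 0.32 (adjusted p = 1.72e-06). Agt, angiotensinogen, fell by 2.93 ± 0.24 (adjusted p = 9.93e-07), S100b by 2.47 ± 0.18 (adjusted p = 5.29e-07), and the glutamate transporter Slc1a3 by 2.05 ± 0.19 (adjusted p = 2.77e-06). The water channel Aqp4 and the main glutamate transporter Slc1a2, named after their values were seen, fell by 1.56 ± 0.30 (adjusted p = 0.00131) and 1.94 ± 0.25 (adjusted p = 5.27e-05).

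The reactive astrocyte list was mixed, with 9 of 19 higher and 2 lower. Gfap, the filament protein that usually marks reactivity, was at 229097, 231647, 214487 and 286203 in distal tissue and at 88949, 78010, 85830 and 54359 in lesions, and fell by 1.66 ± 0.22 (adjusted p = 5.25e-05). Vim, vimentin, shared with macrophages, endothelium and fibroblasts, rose by 2.14 ± 0.24 (adjusted p = 1.45e-05). Srgn, a proteoglycan that blood cells also store, rose by 3.91 ± 0.49 (adjusted p = 3.32e-05), and Emp1 by 2.88 ± 0.31 (adjusted p = 8.85e-06). Aspg fell by 1.84 ± 0.47 (adjusted p = 0.00819) and was named after its values were seen. Without lesion library 14, 5 members rose.

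Few neuronal genes passed. Of 16 general neuron genes 1 rose and 1 fell, and of 20 spinal transmitter and channel genes 2 fell. Of all tested genes 16.1% were higher and 13.8% lower. Gap43, a protein of growing axons, was at 217, 692, 427 and 666 in distal tissue and at 2960, 2690, 1040 and 1551 in lesions, a rise of 2.06 ± 0.39 (adjusted p = 0.00107). Uchl1, a neuronal deubiquitinase, fell by 1.09 ± 0.24 (adjusted p = 0.00347). The axonal potassium channel Kcna1, which sits beside nodes under myelin, went from 8823, 7362, 9732 and 7460 to 1294, 3911, 3199 and 1783 and fell by 1.84 ± 0.31 (adjusted p = 0.000386). Its partner Kcna2 fell by 1.31 ± 0.41 (adjusted p = 0.0247), a call lost in 4 of 28 alternatives, among them without lesion library 8 (adjusted p = 0.078). Rbfox3, which encodes the NeuN antigen, gave −1.74 ± 0.71 (adjusted p = 0.0809) and Map2 gave −0.82 ± 0.37 (adjusted p = 0.113), each with overlap. Rbfox3 passed with quantile normalization (adjusted p = 0.0307), with DESeq2 (0.0343), and without non-ablated distal library 5 (0.04), lesion library 10 (0.0438) or distal library 13 (0.0459). Map2 passed with array weights (adjusted p = 0.0217), with the replicate block (0.0377) and without distal library 7 (0.0457). The neuron genes that fell numbered 3 without lesion library 10, 2 without distal library 7 or 13 or non-ablated distal library 5, and 4 with the replicate block. A miss of the threshold does not show that neurons were alike in both tissues.

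Vascular genes moved both ways. Of 17 endothelial and barrier genes 1 rose and 5 fell, beside 16.1% higher and 13.8% lower of all tested genes. The falls numbered 5 in each fit that left out 1 ablated library. Mfsd2a, the lipid transporter of the blood-brain barrier, was at 1169, 1412, 882 and 952 in distal tissue and at 317, 477, 277 and 273 in lesions, and fell by 1.73 ± 0.28 (adjusted p = 0.000317). The barrier transporter Slco1a4 fell by 2.35 ± 0.39 (adjusted p = 0.000388) and the peptide ligand Apln by 1.92 ± 0.29 (adjusted p = 0.000168), while Esm1, a marker of sprouting vessels, rose by 3.22 ± 0.57 (adjusted p = 0.000659). The tight junction gene Cldn5 gave 0.08 ± 0.40 (adjusted p = 0.911). The VEGF receptor Flt1 gave −0.41 ± 0.39 (adjusted p = 0.471), and −0.84 without distal library 9 (adjusted p = 0.05) and −0.15 without distal library 7. Of 12 mural genes 2 rose and 1 fell, beside the same 16.1% and 13.8% of all tested genes. The rises numbered 1 with edgeR, with DESeq2 and in the fit on the ablated libraries alone, and the falls 2 with DESeq2. Kcnj8, a potassium channel of pericytes, fell by 2.58 ± 0.56 (adjusted p = 0.00292), and Anpep, an aminopeptidase that macrophages carry too, rose by 7.07 ± 1.27 (adjusted p = 0.000715).

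Collagen and matrix genes rose strongly. Of 20 fibroblast and collagen genes 17 rose and none fell (median 3.45). Col1a1, a fibrillar collagen chain, was at 62.9, 18.4, 135 and 30.4 in distal tissue and at 2402, 2559, 7801 and 4334 in lesions. It rose by 6.31 ± 0.62 (adjusted p = 4.56e-06). Col3a1 rose by 6.74 ± 0.62 (adjusted p = 2.39e-06), Col6a1 by 4.38 ± 0.49 (adjusted p = 1.24e-05), and Postn, periostin, by 5.38 ± 0.61 (adjusted p = 1.61e-05), the last at 237 to 2494 in the lesions. Among 20 matrix proteins 11 rose and 2 fell, with Fbn1, fibrillin 1, up by 4.23 ± 0.58 (adjusted p = 7.18e-05).

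Of 14 matrix proteases and inhibitors 9 rose and 1 fell. Mmp12, macrophage elastase, was at 4.75, 0, 1.83 and 6.26 in distal tissue and at 4631, 3272, 2370 and 6280 in lesions. No named gene changed more, at 10.20 ± 0.97 (adjusted p = 3.2e-06). Mmp13, a collagenase, had 1 read in the 4 distal libraries together and stood at 63.9, 16.8, 28.2 and 35.3 in lesions (adjusted p = 1.01e-05). Timp2, an inhibitor of these proteases, rose by 1.77 ± 0.19 (adjusted p = 1.06e-05). Timp1, Timp3 and Timp4 are listed at 0.

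Of 10 Schwann cell genes 1 rose and 2 fell, near the 16.1% higher and 13.8% lower of all tested genes. With array weights 3 rose and 4 fell. Egr2, also an immediate early gene of macrophages, rose by 1.52 ± 0.42 (adjusted p = 0.0127), and Pmp22 and Pou3f1 fell by 1.03 ± 0.24 (adjusted p = 0.00452) and 1.03 ± 0.34 (adjusted p = 0.0348), both with overlap. The Pou3f1 call was lost in 10 of 28 alternatives. Of 9 ependymal genes Tekt1 fell, by 2.79 ± 0.54 (adjusted p = 0.00124), and 3 fell without distal library 9. Among 3 blood cell genes tested Pf4, of platelets and of macrophages, rose by 4.62 ± 0.93 (adjusted p = 0.00168).

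**Figure D3:**
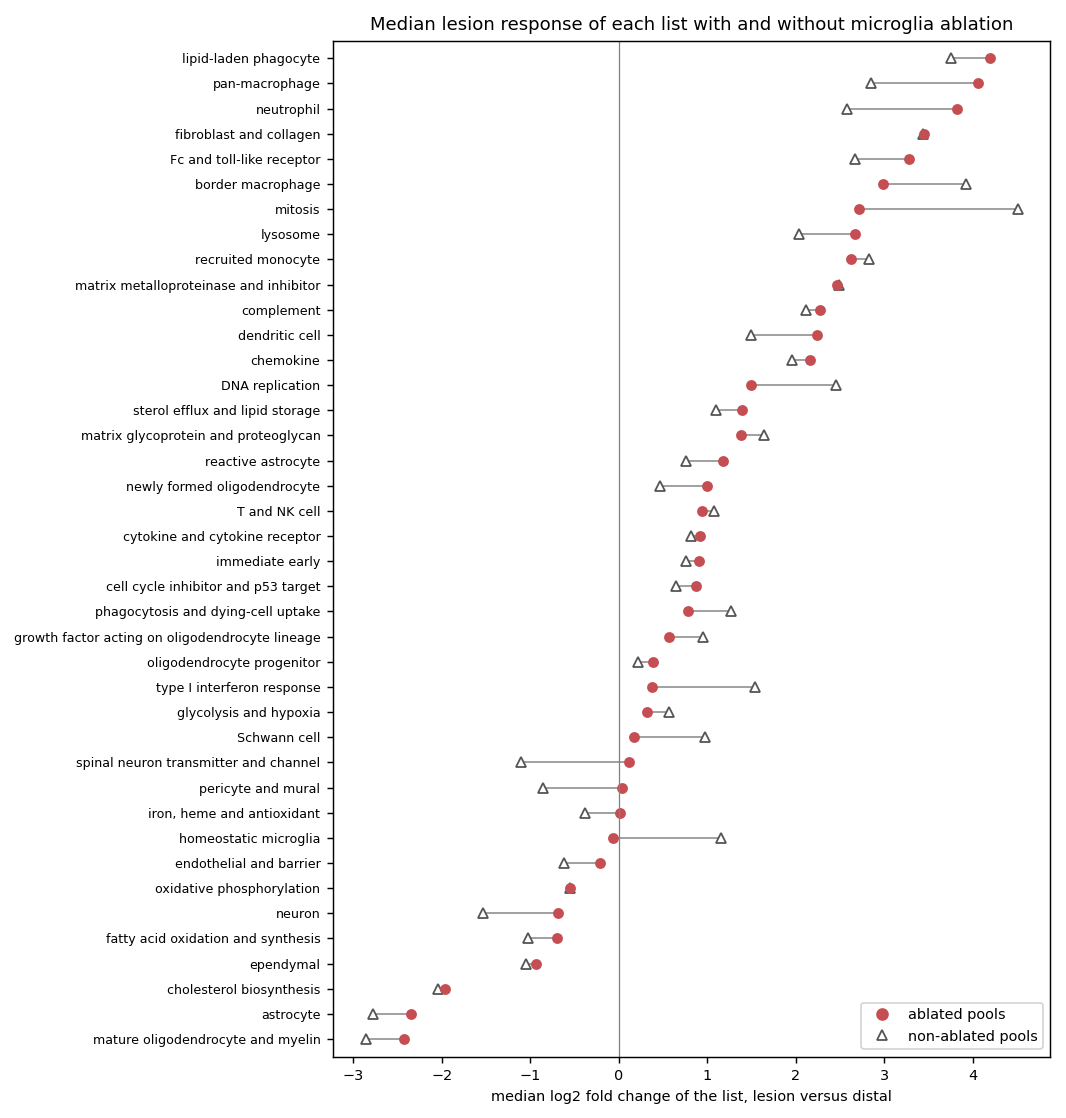
Median log2 fold change of lesion against distal tissue (x axis) of each gene list, for ablated and for non-ablated mice. The phagocyte, lysosome and collagen lists lie to the right, the myelin, astrocyte and cholesterol lists to the left, and no list has a median above 1 in either genotype and below −1 in the other. Medians of opposite sign, ablated then non-ablated, belong to the spinal transmitter (0.12, −1.10), homeostatic microglia (−0.07, 1.16), mural (0.04, −0.86) and iron (0.01, −0.38) lists.

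**Figure D4:**
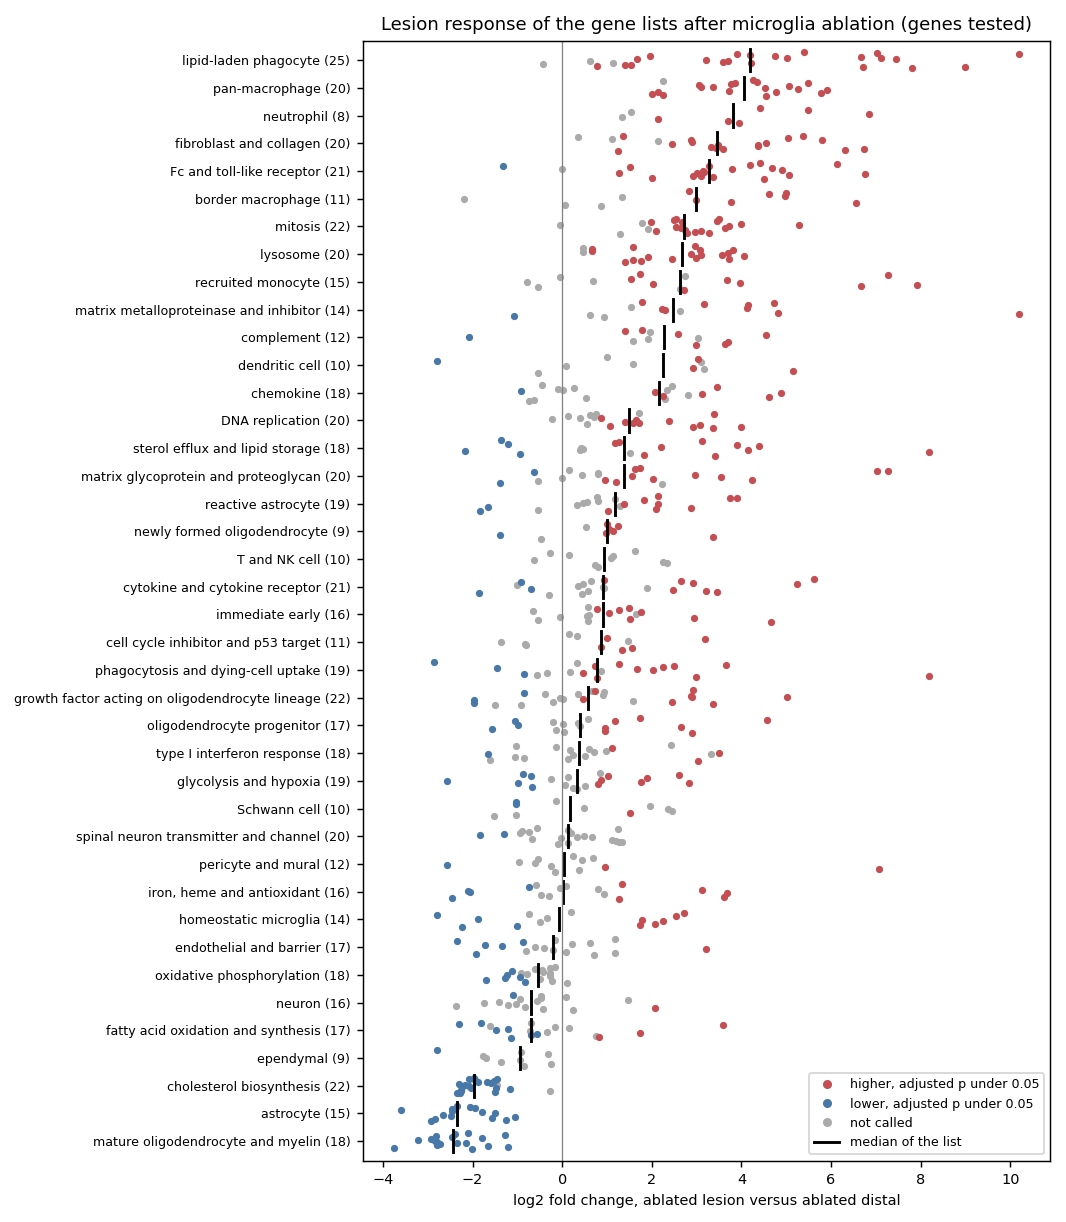
Log2 fold change in ablated mice of every tested member of the lists, with members past the test set apart from those without a call. All myelin and astrocyte members lie below 0, whereas the microglia, progenitor and interferon lists spread to both sides.

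Genes of cell division rose. Of 22 mitosis genes 18 rose and none fell (median 2.71), and of 20 DNA replication genes 12 rose and none fell (median 1.50). Prc1, which bundles microtubules between separating chromosomes, was at 698, 115, 353 and 325 in distal tissue and at 3991, 3130, 2847 and 3722 in lesions. The groups were far apart and Prc1 rose by 3.45 ± 0.47 (adjusted p = 6.93e-05). Kif20a rose by 5.28 ± 0.62 (adjusted p = 2.17e-05), Bub1, a spindle checkpoint kinase, by 2.96 ± 0.51 (adjusted p = 0.000501), and Cdc20, which triggers anaphase, by 2.66 ± 0.46 (adjusted p = 0.000478). Cdk1, the kinase that starts mitosis, and Top2a, which untangles chromosomes, were named after their values were seen and rose by 3.64 ± 0.73 (adjusted p = 0.00163) and 2.49 ± 0.45 (adjusted p = 0.000687). Of the replication genes Mcm2 rose by 1.71 ± 0.33 (adjusted p = 0.00111), Cdt1 by 2.91 ± 0.51 (adjusted p = 0.000579), Cdc6 by 3.36 ± 0.74 (adjusted p = 0.00307) and Fen1 by 1.07 ± 0.25 (adjusted p = 0.00496), all parts of origin licensing or strand completion.

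Mki67, the usual marker of cycling cells, did not pass. It was at 17.8, 1275, 53.8 and 126 in distal tissue and at 282, 457, 192 and 923 in lesions, and library 9 was the distal library that reached above lesions. The change was 1.78 ± 1.00 (adjusted p = 0.204) with distal library 9 and 2.94 without it (adjusted p = 0.00675). Aurka, a spindle kinase, showed the same pattern, with 1.30 ± 0.63 (adjusted p = 0.141) and 2.02 (adjusted p = 0.005). Without that library 21 mitosis genes rose. Kif11 gave −0.06 ± 0.35 (adjusted p = 0.924).

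**Figure D5:**
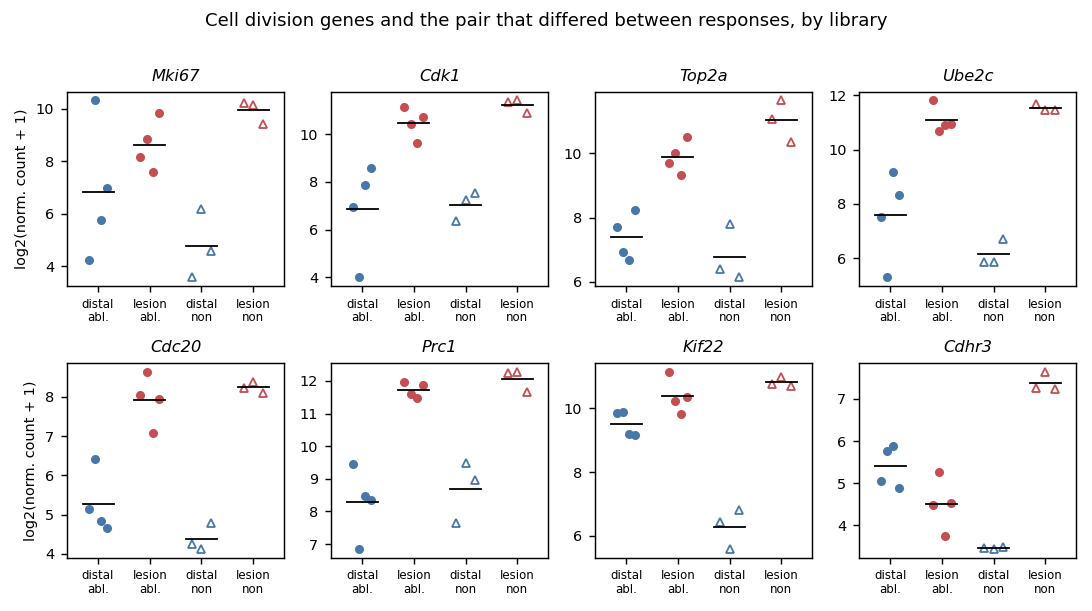
Log2(normalized count + 1) of Mki67, Cdk1, Top2a, Ube2c, Cdc20, Prc1, Kif22 and Cdhr3 in every library, with circles for ablated and open triangles for non-ablated libraries and black lines at the mean of log2(normalized count + 1). Distal library 9 of the ablated mice lies high for Mki67, and for Kif22 and Cdhr3 the ablated distal libraries lie above the non-ablated distal ones.

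The cell cycle homology region, with the letters TTTGAA, is a promoter element through which mitosis genes are held down outside division. Of 18 mitosis genes with a window 13 held it on one strand or the other, 72.2% against 20.2% of 27025 genes. Windows of 3 genes are shown with the letters in capitals where they fall on the printed or the opposite strand, close to the start: Cdc20 at chr4:118437294-118437593 on the minus strand, Prc1 at chr7:80294201-80294500 on the plus strand and Ube2c at chr2:164769679-164769978 on the plus strand. Ube2c, an enzyme that tags mitotic proteins for destruction, was named after its values were seen and rose by 3.51 ± 0.60 (adjusted p = 0.000505).
Cdc20: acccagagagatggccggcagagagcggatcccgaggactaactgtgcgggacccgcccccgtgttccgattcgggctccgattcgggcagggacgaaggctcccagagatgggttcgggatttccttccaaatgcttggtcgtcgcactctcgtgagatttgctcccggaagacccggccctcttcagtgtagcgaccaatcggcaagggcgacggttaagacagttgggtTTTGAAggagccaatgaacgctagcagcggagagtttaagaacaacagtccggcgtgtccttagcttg
Prc1: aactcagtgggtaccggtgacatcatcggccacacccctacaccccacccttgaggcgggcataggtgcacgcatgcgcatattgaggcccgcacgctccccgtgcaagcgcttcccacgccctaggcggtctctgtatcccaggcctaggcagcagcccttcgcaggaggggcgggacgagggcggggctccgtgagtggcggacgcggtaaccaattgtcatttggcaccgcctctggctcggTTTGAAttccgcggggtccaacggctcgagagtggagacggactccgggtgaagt
Ube2c: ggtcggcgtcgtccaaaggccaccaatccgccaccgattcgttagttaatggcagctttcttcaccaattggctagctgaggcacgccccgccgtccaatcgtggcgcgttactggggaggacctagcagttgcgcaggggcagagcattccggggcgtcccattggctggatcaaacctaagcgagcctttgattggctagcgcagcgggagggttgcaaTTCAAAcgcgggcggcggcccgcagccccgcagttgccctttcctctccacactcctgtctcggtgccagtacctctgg

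Among the largest rises of all tested genes was that of Fcrl1, an Fc receptor-like protein known from B cells, which was at 1.19, 0, 10 and 0 in distal tissue and at 1373, 1515, 1561 and 1820 in lesions, a rise of 9.46 ± 0.69 (adjusted p = 4.76e-07). F7, coagulation factor VII, rose by 9.39 ± 0.53 (adjusted p = 7.22e-08), Cd5l, a protein secreted by tissue macrophages, by 9.24 ± 1.41 (adjusted p = 0.000192), and Cd22, a sialic acid-binding lectin, by 9.01 ± 1.19 (adjusted p = 5.72e-05). Of the B cell genes tested, Cd79b rose (log2 3.96, adjusted p = 0.00335) and Pax5 fell (log2 −2.20, adjusted p = 0.0407), with the limits given above. Cd79a and Jchain were too low to be tested in these libraries. Ms4a1 is listed at 0, an entry that says nothing of the cells. Slamf7 rose by 8.70 ± 1.07 (adjusted p = 3.09e-05), the protease gene Prss46 by 8.31 ± 0.75 (adjusted p = 2.2e-06) and Csf2rb2 by 8.00 ± 0.81 (adjusted p = 5.83e-06). Npy, neuropeptide Y, went from 0, 0, 0 and 7.15 to 473, 427, 309 and 528. Hpse, heparanase, rose by 7.89 ± 0.79 (adjusted p = 4.9e-06), the amino acid transporter gene Slc36a2 by 7.85 ± 0.64 (adjusted p = 9.59e-07), and Cd28, the T cell costimulatory receptor, by 7.84 ± 0.73 (adjusted p = 2.74e-06).

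Among the largest falls was Dao, D-amino acid oxidase of astrocytes, which was at 798, 1124, 353 and 674 in distal tissue and at 53.8, 31.1, 10.8 and 13.3 in lesions, and fell by 4.86 ± 0.51 (adjusted p = 7.63e-06). Art3, an ADP-ribosyltransferase-like gene, fell by 4.02 ± 0.29 (adjusted p = 4.48e-07) and Ucma by 4.07 ± 0.41 (adjusted p = 5.87e-06). Pdyn, the opioid peptide precursor prodynorphin of dorsal neurons, fell by 4.77 ± 1.12 (adjusted p = 0.00474), with distal values of 616, 51.8, 548 and 160. Galnt5 fell by 4.55 ± 0.80 (adjusted p = 0.000582), Sec14l5 by 4.20 ± 0.61 (adjusted p = 0.000117), Sspo, SCO-spondin, by 3.99 ± 0.59 (adjusted p = 0.00015), Fn3k by 3.99 ± 0.53 (adjusted p = 5.91e-05) and Myh6, a myosin heavy chain of heart, by 3.91 ± 0.57 (adjusted p = 0.000135). Myh6 overlaps the protein-coding gene Cmtm5 and Art3 overlaps Cxcl10, so their reads could be shared with those genes.

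Several of these falls leaned on distal library 9. Apela was at 125, 768, 95.8 and 66.1 in distal tissue (log2 −5.71 ± 0.78 (adjusted p = 7.52e-05)), Banf2 at 67.6, 4477, 50.2 and 75.1 (log2 −5.21 ± 1.38 (adjusted p = 0.01)) and Gng8 at 234, 2371, 293 and 212 (log2 −3.98 ± 0.72 (adjusted p = 0.000745)). Without it the values were −4.95, −3.68 and −3.16, and all 3 still passed. Rnase1 rested on distal library 7, at 1739, 127, 16.4 and 16.1. Its fall was −4.22 ± 1.48 (adjusted p = 0.0444) with that library and −2.80 without it (adjusted p = 0.132), and its call was lost in 11 of 28 alternatives. Aim1l fell by 3.95 ± 0.73 (adjusted p = 0.00092), and Lhx1os, which is antisense to Lhx1, by 3.98 ± 0.85 (adjusted p = 0.00261). Without knowledge of strand in counting, its reads and those of its neighbour cannot be told apart.

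The lesion response of non-ablated mice had 2298 higher genes, 14.7%, and 2076 lower ones, 13.3%. It shares no library with the ablated response. Of the genes higher in the ablated lesion 67.9% were also called higher in the non-ablated lesion, and of the genes higher in the non-ablated lesion 74.4% were called higher in the ablated one. For falls the shares were 73.7% and 76.6%. Across genes, which are not independent replicates, the changes of both responses correlated at r = 0.811, and 98.1% of the genes called in ablated mice had the same sign in the non-ablated mice.

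The test of the difference between the responses called 0 genes higher in ablated mice, 0%, and 2 lower, 0.0128%, of 15637, by limma. At an unadjusted p under 0.05 there were 494 and 391, edgeR called 0 and 2, and DESeq2 called 56 and 41. No gene of any list passed by limma. The pan-macrophage list had a median of 4.06 with ablation and 2.85 without, and the mitosis list 2.71 and 4.51. The myelin list had −2.43 and −2.86, and the homeostatic microglia list −0.07 and 1.16. No member carried these differences past the limma test at the adjusted threshold. At an unadjusted limma p under 0.05 there were 7 of 20, 9 of 22, 0 of 18 and 5 of 14 members, in that order. Over all genes there were 885 of 15637.

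The genes that passed were Kif22 and Cdhr3. Kif22, a kinesin of chromosome movement, was at 925, 934, 586 and 566 in ablated distal tissue and at 2250, 1206, 896 and 1307 in ablated lesions, and at 85.9, 47.4 and 112 and 1752, 2009 and 1664 in the non-ablated ones. Its lesion values overlapped between genotypes, and the genotypes parted in distal tissue. The response was 0.87 ± 0.32 (adjusted p = 0.0573) in ablated mice, 0.98 without distal library 9 (adjusted p = 0.0422), and 4.53 ± 0.37 (adjusted p = 1.95e-06) in non-ablated mice, a difference of −3.66 ± 0.49 (adjusted p = 0.0383). Cdhr3, a cadherin known from ciliated airway cells, was at 32, 53.5, 58.4 and 28.6 and 21.3, 37.5, 12.5 and 22 in ablated distal and lesion tissue and at 9.98, 9.92 and 10.2 and 151, 198 and 149 in non-ablated tissue, a difference of −4.80 ± 0.68 (adjusted p = 0.0383). Over the alternatives the adjusted p ran from 6.72e-08 to 0.304 for Kif22 and from 4.92e-09 to 0.533 for Cdhr3. Leaving out 1 library ended both calls for non-ablated distal libraries 1 and 3, for each of the non-ablated lesion libraries 2, 4 and 6, and for ablated libraries 7, 9, 10, 12, 13 and 14, with adjusted p up to 0.316. Cdhr3 alone lost its call without libraries 5, 8 and 11.

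Of the next genes by p, none passed. Myef2 gave a difference of −4.22 ± 0.65 (adjusted p = 0.0636) and Gas6 of −1.43 ± 0.23 (adjusted p = 0.097), the latter at 0.46 ± 0.15 (adjusted p = 0.0353) in ablated and 1.88 ± 0.18 (adjusted p = 4.57e-06) in non-ablated mice. In the other direction Mfge8 gave 1.71 ± 0.31 (adjusted p = 0.183), Dnal1 2.58 ± 0.49 (adjusted p = 0.209), Epas1 1.61 ± 0.31 (adjusted p = 0.209), and Slc11a1, a metal transporter of phagosomes, 2.81 ± 0.55 (adjusted p = 0.209). Mfge8 and Gas6 encode bridging proteins of the same uptake process, and their differences had opposite signs.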

How the data were processed

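RNA from 14 pooled tissue samples was extracted together, reverse transcribed and amplified by multiple displacement, and sequenced for 75 cycles, per the labels' protocols. Tools and build in the submitters' processing notes are bcl2fastq, BWA 0.7.17.1, DESeq2 and mm10. How reads were counted, in which annotation and with what use of strand, is not stated there. The deposited table holds counts per gene that the authors divided by size factors, a signal on a normalized count scale. Whole reads were recovered for 100% of values (within 0.01). The 8 entries without a symbol, at most 0.0239% of reads, and the 27 whose symbols had turned into dates were kept. They took the RefSeq symbol of their Entrez ID, or the ID itself where RefSeq held no symbol. Reads are not unique molecules.

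A gene was kept where 3 or more libraries reached a normalized count of 10, which held for 15637 of 24116, and log2(count + 1) was fitted with limma 3.58.1 (trend; R 4.3.3) with 1 mean for each of the 4 groups and 10 residual degrees of freedom (prior 4.23). Calls are at a Benjamini-Hochberg adjusted p under 0.05. All p-values are two-sided. In the recovered reads, edgeR 4.0.16 called 2238 genes higher and 2444 lower, and DESeq2 1.42.0 was a further alternative. The procedure was tested on simulated data. Replicate pools differed by more than sampling noise (chi-square per degree of freedom at least 33.5). Lesion and distal libraries carry no label of shared mice, and the deviations of neighbouring title numbers correlated at −0.096 to 0.206, not over 0.1 in every pair, so they were not taken as pairs.

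Named genes are the 15 largest rises and 15 largest falls without overlap, up to 4 members with the smallest p and 2 uncalled members with the highest mean of each list, 4 genes in each direction of the difference, and a fixed set of 12. Genes outside this rule were named after their values were seen, and some that the rule names are not reported here. The members of the comparison, the lists and the tests were chosen with earlier results of these data known. Promoter windows are from RefSeq (GRCm38.p6). Scaling, pseudocount, filter, weights, age label, replicate block and each library left out in turn were the alternatives, 28 in all.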

Additional observations from a re-analysis of the deposited data

Results flagged for a closer look

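A library far from the other 3 of its group was found at 24 of 440 sets of 4 values, 5.5%. Chance flags about 1 in 20 groups. Distal library 9 held 9 of them. It was low for Csf1r (241), Oas1a (5.01) and Pgam1 (1383), and high for Cd44 (96609), Lhfpl3 (3522), Cox4i1 (304927), Olfml3 (2173), Banf2 (4477) and Gng8 (2371). Distal library 7 was high for Abcg1 (10032). Distal library 11 was the only nonzero distal one for Cd4 (2.74) and Mmp13 (0.913), as was distal library 13 for Cd79b (19.7), Il1a (0.894), Slamf7 (8.04) and Npy (7.15). Lesion library 8 was high for S100a8 (1749) and Aspg (120) and low for Tlr3 (67.6) and Pdyn (0). Lesion library 14 was high for Mfge8 (19408) and Emp1 (6282) and low for Cx3cl1 (637) and Ntsr2 (384).

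The lesion response differed between ablated and non-ablated mice by the limma test of the difference for Cdhr3 (−4.80 on the log2 scale) and Kif22 (−3.66). Both rose in the 3 non-ablated lesion libraries, and the ablated distal libraries lay above the non-ablated distal ones for both. Age as labelled and genotype cannot be told apart in this contrast.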

How the results depend on the processing

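The counts of genes higher and lower in the ablated lesion kept within 1.5 times of 2520 and 2158 under all 28 alternatives. With 1 library left out they ran from 1961 to 2658 and from 1700 to 2262, and under the others from 2153 to 2961 and from 1785 to 2836. Neighbouring title numbers used as a replicate block, which the labels do not give as pairs, left 2405 higher and 2050 lower genes. In the check of that pairing 3 of 3 non-ablated and 1 of 4 ablated distal libraries correlated best with their neighbour, a hint from the data and not the design. For the difference between the responses, higher genes numbered 1 with array weights and 56 with DESeq2 against 0, and 0 to 1 with a library left out. Lower genes numbered 0 without the filter, 1 with the filter at 50, 5 with array weights, 1 with age as a covariate, 0 with the replicate block and 41 with DESeq2 against 2, and 0 to 2 with a library left out. The cause was not tested. Quantile normalization shifted the median over all genes by −0.119. Of 187 called genes in the text, 171 kept the call throughout and none changed sign. Sign changes among uncalled genes in the text were Tmem119 (−0.57 with edgeR, −0.55 with DESeq2, −0.44 to 1.05 with a library left out), Ch25h (0.32 with array weights, −0.81 to 0.44), Olig2 (−0.01 with TMM scaling, −0.08 to 0.16), Hbegf (0.02 with upper-quartile scaling, 0.09 with quantile normalization, 0.04 with age, 0.01 with DESeq2, −0.27 to 0.06), Cldn5 (−0.10 with edgeR, −0.09 with DESeq2, −0.11 to 0.46) and Kif11 (0.00 with upper-quartile scaling, 0.16 with quantile normalization, 0.19 with array weights, 0.03 with age, −0.30 to 0.30). In lists with up to 3 members called in a direction, leaving out 1 library often changed that count by 1 or 2. Genes near 3 reads in a library are limited by depth.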

Other observations

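Energy, iron and stress genes did not share a direction in the ablated mice. Of all tested genes 16.1% were higher and 13.8% lower. The median change was −0.55 for oxidative phosphorylation, 0.32 for glycolysis and hypoxia, and 0.01 for iron and antioxidant genes. It was 0.91 for immediate early genes and 0.87 for cell cycle inhibitors and p53 targets. Of 18 oxidative phosphorylation genes 6 fell and none rose, with Sdha down from 6637, 9915, 6928 and 7159 to 3121, 3821, 3455 and 3632 and a change of −1.11 ± 0.17 (adjusted p = 0.000227). Atp5b gave −0.83 ± 0.19 (adjusted p = 0.00378), and Cox4i1 gave −1.71 ± 0.39 (adjusted p = 0.00387) with distal library 9 at 304927. Of 19 genes of glycolysis and hypoxia 7 rose and 5 fell: Ldha, which makes lactate, rose by 1.75 ± 0.29 (adjusted p = 0.000322), the lactate exporter Slc16a3 by 2.61 ± 0.48 (adjusted p = 0.000852) and Pgam1 by 1.90 ± 0.26 (adjusted p = 8.4e-05), while Ndrg1, also a gene of oligodendrocytes and Schwann cells, fell by 2.57 ± 0.22 (adjusted p = 1.72e-06).

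Of 16 iron and antioxidant genes 5 rose and 4 fell. The ferritin chains went apart, Ftl1 up by 3.62 ± 0.25 (adjusted p = 2.58e-07) and Fth1 down by 2.47 ± 0.32 (adjusted p = 4.3e-05). Both have many near-identical copies in the genome, so their counts are uncertain. Hmox1, heme oxygenase 1, was at 46.3, 172, 151 and 117 and then 1583, 1225, 1146 and 1724, and Nupr1 rose by 3.13 ± 0.43 (adjusted p = 7.76e-05). Of 16 immediate early genes 8 rose and none fell, with Atf3 up by 4.66 ± 0.52 (adjusted p = 1.31e-05), Junb by 1.75 ± 0.30 (adjusted p = 0.000537) and Myc by 1.50 ± 0.37 (adjusted p = 0.0067). Of 11 cell cycle inhibitors and p53 targets 5 rose, among them Cdkn2c by 3.18 ± 0.77 (adjusted p = 0.00594) and Bax by 1.34 ± 0.34 (adjusted p = 0.00753), a count that was 3 without distal library 7 or lesion library 10 and 2 without lesion library 12.

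Of 27 list genes at 0 in all 14 libraries, 13 overlap another protein-coding gene in RefSeq, such as P2ry12 and P2ry13 within Med12l. The 23 genes named in the text that overlap another protein-coding gene had values, and their reads could be shared with it.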
